A study of Homo sapiens with 16 samples.

Results

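Open chromatin was followed at 6 genomic windows that hold 7 genes of the sarcomere and of muscle structure and energy supply: TNNT2 with TNNI1, ACTA1, TTN, DES, ACTC1 and CKM. Members were all accessible regions of the deposited count tables that overlapped a fixed window around these genes on the hg19 build. That rule gave 45 of 56949 regions in the table of the experiment numbered 6086 and 31 of 40844 in the table of the experiment numbered 6211. In 6086 the windows of TNNT2 with TNNI1, ACTA1, TTN, DES, ACTC1 and CKM held 15, 1, 5, 11, 7 and 6 regions. In 6211 they held 13, 1, 2, 9, 3 and 3. Each member passed the filter on low counts, and none was left out.

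All 16 libraries were made by ATAC-seq, in which a transposase cuts and tags accessible DNA, from Rh30, an established human alveolar rhabdomyosarcoma cell line. Every library, controls included, came from Rh30 cells with PAX3-FOXO1 fused to an FKBP tag, and received either the solvent DMSO or 500 nM dTAG47. Compounds of the dTAG kind bring FKBP-tagged proteins to the cell's ubiquitin machinery for degradation. Experiment 6086 had DMSO and 2, 4 and 24 h of dTAG47. Experiment 6211 had DMSO and 0.5, 1 and 2 h, and every group of both experiments had 2 libraries, called A and B here after their column names. The labels give no duration for DMSO, do not say whether the tagged cells were 1 clone, and do not say whether libraries of a group came from separate cultures. P-values therefore measure only the spread between these libraries, which may be technical. No cells without the tag were included and the amount of PAX3-FOXO1 protein was not analysed here, so loss of the fusion and other effects of dTAG47 cannot be told apart. Nor can dTAG47 and time in culture, since each experiment has 1 DMSO group for all its times.

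The sarcomere is the contractile unit of striated muscle, in which thin filaments of actin slide along thick filaments of myosin. Troponin and tropomyosin on the thin filament make the sliding depend on calcium, and titin acts as a molecular spring. Desmin filaments link neighbouring myofibrils, and creatine kinase restores ATP from phosphocreatine. PAX3-FOXO1 is a fusion transcription factor found in alveolar rhabdomyosarcoma, a tumour with features of the skeletal muscle lineage whose cells express muscle genes but do not complete differentiation.

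The 150 bases upstream of the start are shown for the 5 of 7 genes with an entry in the RefSeq promoter table used here (GRCh38.p14, all on the minus strand), because regions in each of their windows changed at 24 h. TNNI1 and DES have no entry. Capitals mark matches, on either strand, to the E-box CAGCTG, the motif CATTCC bound by TEAD factors, the TATA motif TATAAA, the CArG box bound by serum response factor and the MEF2 box. The 250 bases upstream were searched. The stretches are chr1:201377681-201377830 for TNNT2, chr1:229434095-229434244 for ACTA1, chr2:178807424-178807573 for TTN, chr15:34795550-34795699 for ACTC1 and chr19:45322876-45323025 for CKM.
TNNT2: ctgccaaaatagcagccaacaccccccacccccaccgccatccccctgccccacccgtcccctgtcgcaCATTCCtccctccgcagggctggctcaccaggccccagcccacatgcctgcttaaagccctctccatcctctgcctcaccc
ACTA1: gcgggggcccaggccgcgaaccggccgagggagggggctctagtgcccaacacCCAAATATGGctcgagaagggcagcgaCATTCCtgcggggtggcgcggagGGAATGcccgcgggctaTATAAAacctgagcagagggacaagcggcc
ACTC1: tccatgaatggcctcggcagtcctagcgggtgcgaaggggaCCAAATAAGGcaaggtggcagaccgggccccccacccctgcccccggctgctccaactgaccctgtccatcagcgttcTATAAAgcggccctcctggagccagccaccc
TTN: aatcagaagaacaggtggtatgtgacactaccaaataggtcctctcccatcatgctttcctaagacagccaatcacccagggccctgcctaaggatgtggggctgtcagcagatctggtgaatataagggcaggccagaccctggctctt
CKM: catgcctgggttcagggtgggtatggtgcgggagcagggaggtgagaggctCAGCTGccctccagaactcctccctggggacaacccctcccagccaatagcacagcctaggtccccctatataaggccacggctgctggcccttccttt

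Both actin promoters, ACTA1 and ACTC1, held 1 CArG box and 1 TATAAA each in the 250 bases, and ACTA1 also held 2 matches to CATTCC. In the CKM promoter there was 1 CAGCTG, in the TNNT2 promoter 1 CAGCTG (upstream of the stretch shown) and 1 CATTCC, and in the TTN promoter 1 MEF2 box (also upstream of the stretch shown). Of 35116 RefSeq promoters of the same length, 14.0% held CAGCTG, 11.9% CATTCC, 10.7% TATAAA, 1.16% a CArG box and 2.8% a MEF2 box. These letters are on GRCh38 and the accessible regions are on hg19, so whether a region covers a promoter was not determined, and a match is not evidence that a factor was bound. No gene annotation on hg19 was used either. A region is therefore placed by its coordinates and window, not in an exon, intron or promoter, and windows also hold sequence of neighbouring genes, such as LAD1 between TNNT2 and TNNI1, and DNPEP and SPEG on either side of DES.

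Libraries held 18038062 to 31308682 counts in 6086 and 9934147 to 18275976 in 6211, and mean counts of members ran from 61.9 to 2644.5 in 6086 and from 123 to 1303 in 6211. Levels are given as CPM, the count of a region scaled to a common library total, with the authors' counts scaled by TMM factors. Regions of 6211 were 401 bp wide with 1 exception, while those of 6086 had variable widths, so CPM was not compared between the tables. In bulk cells a lower level cannot tell a smaller share of cells with an open region apart from less opening in each cell. Of the 45 regions of 6086, 32 overlapped a region of the 6211 table, and all 31 of 6211 overlapped a region of 6086.

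At 24 h of dTAG47, most called members of these loci were more accessible than in DMSO. Of 45 regions, 20 rose (44.4%, against 13.6% of all 56945 regions tested) and 3 fell (6.67%, against 18.6% of all regions), by edgeR's quasi-likelihood test with a threshold of 0.05 on the Benjamini-Hochberg adjusted p. The remaining 22 did not pass. The median log2 fold change of the 45 was 0.20, against -0.0031 for all regions, and 35 of 45 values were positive. Rises were found in all 6 windows: 6 of 15 regions at TNNT2 and TNNI1, the 1 region at ACTA1, 2 of 5 at TTN, 3 of 11 at DES, 5 of 7 at ACTC1 and 3 of 6 at CKM. The falls were 2 regions at TTN and 1 at TNNT2 and TNNI1. Under every alternative run, 12 of the 20 rises and 2 of the 3 falls passed. How many calls over all regions passed in every alternative was not counted. DESeq2 called 15 members higher and 2 lower, against 4198 and 7125 of all 56949 regions. The authors' deposited table has the same member counts at the same threshold. It is not a separate check, since DESeq2 is among the tools they list. Its values equal those of the DESeq2 run here where compared, as at chr1:229570415-229570898 (0.243, DESeq2 adjusted p = 0.15 in both).

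Earlier times gave fewer calls. At 2 h in 6086, 2 of 45 regions rose (4.44%, against 0.978% of all regions) and 2 fell (4.44%, against 4.25%). By 4 h, 5 had risen (11.1%, against 1.75%) and 2 had fallen (4.44%, against 5.44%). The 4 h and 2 h libraries were then compared with each other: edgeR called 0 of 45 members, against 0.0773% of all regions lower and 0.00351% higher, with 2 members at an unadjusted p under 0.05, a smallest adjusted p of 0.423 and 0 calls by DESeq2. From 4 h to 24 h, 15 members rose (33.3%, against 8.73%) and 1 fell (2.22%, against 13.9%). DESeq2 called 6 rises and 1 fall in that last comparison. Of all 56949 regions it called 1870 higher and 4025 lower, also fewer than the 4972 and 7889 of edgeR. Comparisons with DMSO in 1 experiment share the same DMSO libraries, and those with 4 h share the 4 h libraries.

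**Figure D1:**
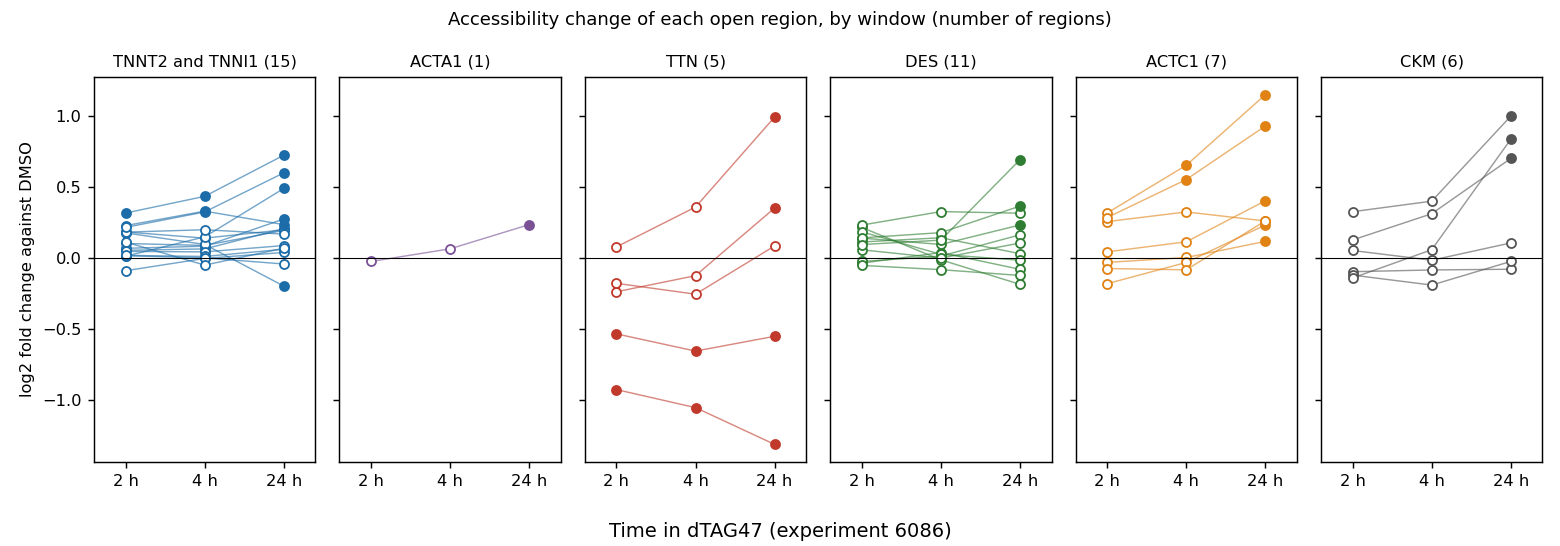
Log2 fold change against DMSO (vertical axis) of every member region of experiment 6086 at 2, 4 and 24 h of dTAG47 (horizontal axis), 1 panel per window with its number of regions; lines join the values of 1 region, and filled points passed an adjusted p under 0.05 in edgeR. At 24 h the filled points above 0 number 20, the 3 below 0 lie at TTN (2) and at TNNT2 and TNNI1 (1), and the values run from -1.31 to 1.15.

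The 20 regions that were higher at 24 h had a median log2 change of 0.10 after 2 h, which was 0.14 after 4 h and 0.45 after 24 h. Of these, 2 had been called at 2 h, 5 at 4 h and 15 at neither time, and 14 were also higher at 24 h than at 4 h. The size of the rise was below 2-fold in all but 1 of them. Of the 3 regions that were lower at 24 h, 2 had been lower at both 2 and 4 h. Both sets were chosen by their 24 h change. The test of 24 h against 4 h reuses the 24 h libraries, which favours a difference. The changes at 2 and 4 h share the DMSO libraries used in that choice. How often all regions called at 24 h show these patterns was not worked out.

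Troponin T (TNNT2) anchors the troponin complex to tropomyosin, and troponin I (TNNI1, the slow skeletal form) inhibits the actin-myosin interaction when calcium is low. Their shared window held both rises that passed at 2 h in 6086, and neither passed in every alternative run. The 2 h values of single regions at ACTC1 (0.32) and CKM (0.33, edgeR adjusted p = 0.51) were as large on the log2 scale and did not pass, and windows were not tested against each other. At chr1:201365005-201365473 the level was 20.2 and 21.6 CPM in DMSO libraries A and B, 26.7 and 25.5 at 2 h, 28.2 and 28.5 at 4 h and 33.8 and 35.4 at 24 h. Every treated library lay above both DMSO libraries, and both 24 h libraries lay above all others. The log2 change was 0.32 at 2 h (SE 0.07, edgeR adjusted p = 0.0056), 0.43 at 4 h (adjusted p = 5.6e-05) and 0.72 at 24 h (SE 0.07, adjusted p = 3e-10), a 1.65-fold rise. The 2 h call was lost without DMSO library A (adjusted p = 0.0585) and without 2 h library A (adjusted p = 0.126).

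Another region of this window, chr1:201393202-201393855, measured 26.9 and 27.4 CPM in DMSO, 31.1 and 32.6 at 2 h, 35.3 and 33.1 at 4 h and 31.1 and 32.9 at 24 h. All 6 treated libraries were above DMSO, and the 24 h libraries were not above those at 4 h. Its log2 change was 0.23 at 2 h (edgeR adjusted p = 0.047), 0.33 at 4 h (adjusted p = 0.001) and 0.23 at 24 h (adjusted p = 0.0063). The 2 h call was lost in 7 of 11 alternatives, DESeq2 (adjusted p = 0.276) and omission of any 1 library of its 2 groups among them. The 24 h call was lost without 24 h library B (adjusted p = 0.0852). At chr1:201399819-201400653 the 2 DMSO libraries gave 30.1 and 30.4 CPM, rising to 38.4 and 37.4 at 4 h and to 44.3 and 47.4 at 24 h. Its log2 change was 0.21 at 2 h, which did not pass, 0.32 at 4 h (adjusted p = 0.0011) and 0.60 at 24 h (adjusted p = 3.7e-09).

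Not all of the troponin window moved up. Its region with the highest CPM, chr1:201388417-201389490, gave 87.3 and 79.9 CPM in DMSO and 86.9 and 87.0 at 24 h, a log2 change of 0.06 (edgeR adjusted p = 0.39), and its 24 h values lay within the DMSO range. The region chr1:201366002-201366854, next to the strongest riser, went the other way, from 43.1 and 47.5 CPM in DMSO and 47.4 and 49.8 at 4 h to 38.5 and 40.8 at 24 h. It fell by 0.20 on the log2 scale against DMSO (adjusted p = 0.01) and by 0.29 against 4 h (adjusted p = 0.00032). Against DMSO the call was lost in DESeq2 (adjusted p = 0.0778), without DMSO library B (adjusted p = 0.254) and without 24 h library A (adjusted p = 0.133), while the fall against 4 h passed in every alternative run. The other 3 risers of this window, at chr1:201345445-201346307, chr1:201346557-201347348 and chr1:201374729-201375008, had log2 changes of 0.19, 0.27 and 0.49 at 24 h. The first was lost without 24 h library B (adjusted p = 0.0513) and the third without 24 h library A (adjusted p = 0.0599). The 8 regions that did not pass lay between -0.04 and 0.21.

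Actins form the thin filament itself: ACTA1 is the skeletal muscle form, and ACTC1 the cardiac form that is also made in immature skeletal muscle. The 1 region at ACTA1, chr1:229570415-229570898, measured 17.5 and 19.3 CPM in DMSO, 16.7 and 19.7 at 2 h, 18.3 and 20.3 at 4 h and 22.9 and 20.7 at 24 h. The 2 h and 4 h libraries overlapped DMSO, and both 24 h libraries lay above it. The log2 change was 0.23 at 24 h (SE 0.09, edgeR adjusted p = 0.034). DESeq2 did not call it (adjusted p = 0.15), nor did edgeR without DMSO library A (adjusted p = 0.181) or without 24 h library A (adjusted p = 0.295).

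At ACTC1 all 7 regions had positive log2 changes at 24 h, between 0.12 and 1.15, and 5 passed. The largest rise among all 45 members was at chr15:35081451-35081794, which measured 4.03 and 4.62 CPM in DMSO, 4.94 and 5.95 at 2 h, 7.50 and 6.27 at 4 h and 9.77 and 9.63 at 24 h. No 2 groups overlapped, and both libraries of each later time lay above those of the time before. The log2 change was 0.32 at 2 h (edgeR adjusted p = 0.27), 0.65 at 4 h (adjusted p = 0.0016) and 1.15 at 24 h (SE 0.13, adjusted p = 6.3e-09), a 2.22-fold rise that lay above the change of 99.8% of all regions. The authors' deposited table gives 1.16 at 24 h. Without 4 h library A the 4 h call was lost (adjusted p = 0.0785).

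Also in the ACTC1 window, chr15:35089175-35089398 rose from 3.81 and 3.29 CPM in DMSO to 6.12 and 7.22 at 24 h (log2 change 0.93, edgeR adjusted p = 7.3e-06). The wider region chr15:35087562-35088492 rose from 56.7 and 62.8 CPM to 81.3 and 77.2 (log2 change 0.40, adjusted p = 2.5e-07). At the member with the highest CPM, chr15:35091404-35092537, DMSO gave 104 and 102 CPM and 24 h gave 111 and 112. That log2 change of 0.12 passed narrowly (adjusted p = 0.049) and was lost in 7 alternatives, among them DESeq2 (adjusted p = 0.151), the replicate block (adjusted p = 0.0706) and omission of any 1 of its 4 libraries. Summed over its 7 regions, the ACTC1 window held 196 and 197 CPM in DMSO and 239 and 236 at 24 h, a ratio of 1.21. At 2 h the ratio was 0.999, with overlapping libraries.

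**Figure D2:**
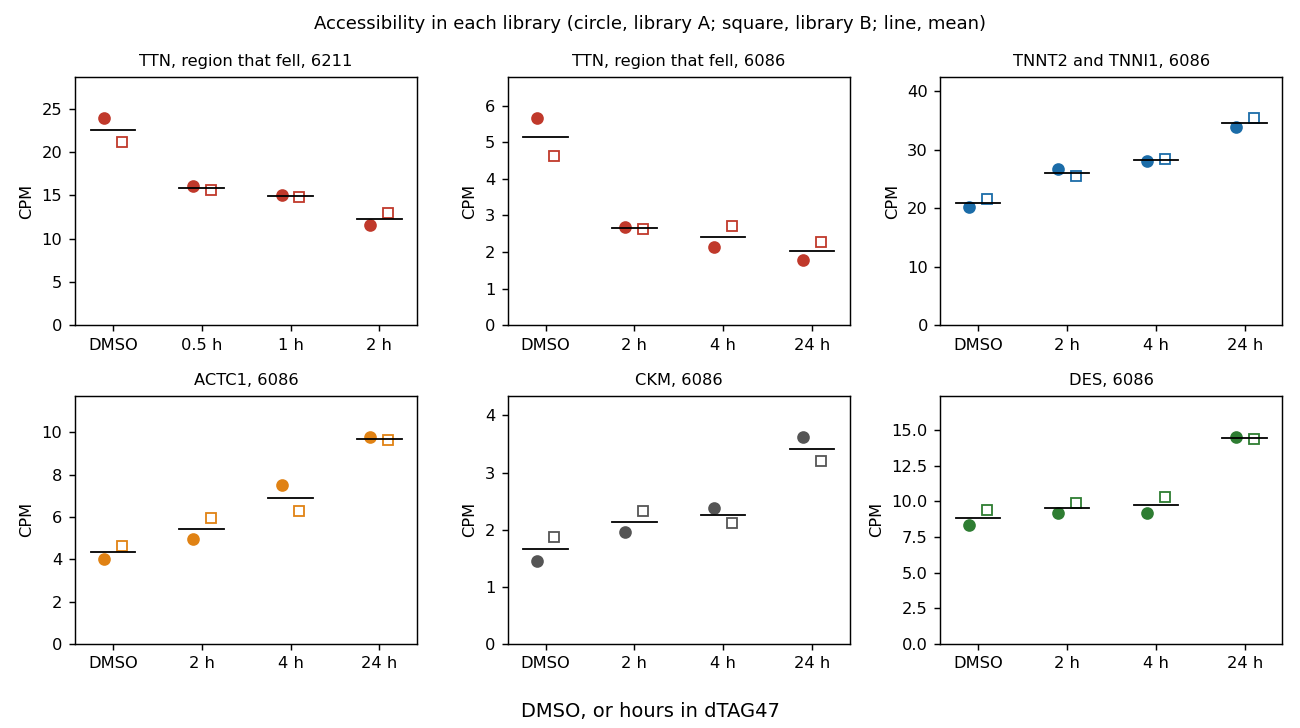
CPM (vertical axis, from 0) of 6 member regions in each library by group (horizontal axis, DMSO or hours in dTAG47); circles are library A, squares library B and lines the mean of the 2. The upper left panel is chr2:179632112-179632865 in 6211 and the next is chr2:179632518-179632797 in 6086, both of which fall with time, to 11.6 and 13.0 CPM and to 1.78 and 2.28 CPM; the others, at TNNT2 and TNNI1, ACTC1, CKM and DES, are highest at 24 h.

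TTN encodes titin, the giant spring protein of the sarcomere. Its window lost accessibility at 1 site in both experiments, and that site was the 1 member that passed at 1 h. In 6211, chr2:179632112-179632865 measured 23.9 and 21.2 CPM in DMSO, 16.1 and 15.6 at 0.5 h, 15.0 and 14.8 at 1 h and 11.6 and 13.0 at 2 h. Both libraries of each treated group lay below DMSO, and those at 2 h were lowest. The log2 change was -0.51 at 0.5 h (SE 0.12), where the edgeR adjusted p of 0.17 did not pass, -0.60 at 1 h (SE 0.12, adjusted p = 0.0044) and -0.88 at 2 h (SE 0.13, adjusted p = 5.7e-05), a 1.84-fold loss. DMSO library A was the higher of its pair: without it the 1 h call was lost (adjusted p = 0.111), as it was without 1 h library B (adjusted p = 0.0889). Without DMSO library B the 0.5 h change passed. That run rests on 1 DMSO library, and calls over all regions also rose in it, so it does not establish a loss at 0.5 h. The 2 h loss passed in every alternative run.

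In the 6086 table the same site was divided into a pair of narrower regions 127 bp apart. The one that fell further, chr2:179632518-179632797, measured 5.66 and 4.62 CPM in DMSO, 2.70 and 2.62 at 2 h, 2.13 and 2.72 at 4 h and 1.78 and 2.28 at 24 h. All 6 treated libraries lay below both DMSO libraries. It fell by 0.93 on the log2 scale at 2 h (SE 0.17, edgeR adjusted p = 0.00024), by 1.05 at 4 h (adjusted p = 3.2e-05) and by 1.31 at 24 h (SE 0.17, adjusted p = 1.2e-07), a 2.48-fold loss, with 0.811% of all regions changing more negatively at 24 h.

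Its partner, chr2:179632226-179632390, gave 6.83 and 6.18 CPM in DMSO, 4.27 and 4.64 at 2 h, 3.90 and 4.28 at 4 h and 4.24 and 4.56 at 24 h. All 6 treated values lay below DMSO, between 3.90 and 4.64 CPM. It fell by 0.53 at 2 h (edgeR adjusted p = 0.011), by 0.66 at 4 h (adjusted p = 0.001) and by 0.55 at 24 h (adjusted p = 0.00085) on the log2 scale. The 2 h call was lost in DESeq2 (adjusted p = 0.243), without DMSO library A (adjusted p = 0.0903) and without 2 h library A (adjusted p = 0.161).

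Other TTN regions were higher at 24 h. At chr2:179493420-179493551, which lies 138674 bp from the region that fell, the level was 2.80 and 2.11 CPM in DMSO, 2.49 and 2.57 at 2 h and 4.67 and 4.88 at 24 h (log2 change 0.99, edgeR adjusted p = 2.8e-05). At chr2:179671378-179671549 it went from 4.54 and 3.95 CPM in DMSO to 5.0 and 5.70 at 24 h (0.35, adjusted p = 0.048), a call lost in 5 alternatives, among them DESeq2 (adjusted p = 0.313) and omission of DMSO library B (adjusted p = 0.335) or 24 h library B (adjusted p = 0.325). The TTN region with the highest CPM, chr2:179672075-179672319, gave 10.9 and 9.62 CPM in DMSO, 8.81 and 8.27 at 4 h and 11.0 and 10.6 at 24 h. At 24 h it overlapped DMSO (log2 change 0.08, adjusted p = 0.57) but was higher than at 4 h (0.34, adjusted p = 0.011). That difference from 4 h was lost in DESeq2 (adjusted p = 0.135), without 4 h library B (adjusted p = 0.128) and without 24 h library A (adjusted p = 0.0846). Summed over the 5 TTN regions, the ratio to DMSO was 0.776 at 2 h and 0.767 at 4 h, without overlap, and 0.956 at 24 h, with overlap. In 6211 the sum over 2 TTN regions had a ratio of 0.800 at 0.5 h, then 0.774 at 1 h and 0.621 at 2 h, all without overlap. Of its 32.4 CPM in DMSO, the site that fell held 22.5. The other region, chr2:179672002-179672402, averaged 9.87 CPM in DMSO, and 10.1, 10.2 and 7.83 CPM after 0.5, 1 and 2 h. Its 2 h change of -0.35 did not pass (edgeR adjusted p = 0.24). The 0.5 h and 1 h ratios therefore restate the site that fell, not a loss across the window. No test was run on window sums.

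Desmin is the intermediate filament protein of muscle, and its window had 3 risers among 11 regions at 24 h and no call at 2 or 4 h. The largest change was at chr2:220309939-220310409, which reaches past the window's end on the side of SPEG. It measured 8.35 and 9.39 CPM in DMSO, 9.17 and 9.92 at 2 h, 9.15 and 10.3 at 4 h and 14.5 and 14.4 at 24 h. The 2 h and 4 h libraries overlapped DMSO, and both 24 h libraries lay above all others. Its log2 change was 0.69 at 24 h (SE 0.10, edgeR adjusted p = 7.2e-07). The other risers, chr2:220282795-220283247 and chr2:220295454-220295773, changed by 0.23 (adjusted p = 0.019) and 0.36 (adjusted p = 0.00082). The first of these was lost in DESeq2 (adjusted p = 0.106), without DMSO library A (adjusted p = 0.0913) and without 24 h library B (adjusted p = 0.116). In contrast, the DES region with the highest CPM, chr2:220269168-220270493, gave 71.1 and 69.0 CPM in DMSO and 72.9 and 70.0 at 24 h (0.03, adjusted p = 0.73).

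CKM encodes the muscle form of creatine kinase, and 3 of the 6 regions in its window rose at 24 h, all within chr19:45825228-45827252. At chr19:45825228-45825398, the member with the lowest CPM, the level was 1.46 and 1.88 CPM in DMSO, 1.95 and 2.32 at 2 h, 2.39 and 2.12 at 4 h and 3.62 and 3.20 at 24 h. Both 24 h libraries were above all others, with a log2 change of 1.00 (SE 0.19, edgeR adjusted p = 7.5e-05). Its neighbour chr19:45825545-45825986 gave 4.93 and 5.71 CPM in DMSO, 4.19 and 5.57 at 2 h, 5.86 and 5.36 at 4 h and 9.60 in both 24 h libraries.

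The earlier libraries of that neighbour overlapped DMSO, and the rise of 0.84 on the log2 scale (SE 0.12, edgeR adjusted p = 1.5e-06) passed against DMSO at 24 h and not before, and the 24 h level was also higher than at 4 h (0.78, adjusted p = 7.7e-06). The last of the group, chr19:45826911-45827252, rose from 5.66 and 6.45 CPM to 9.63 and 10.2 (0.70, adjusted p = 1.2e-05). The remaining 3 regions of the CKM window lay between -0.08 and 0.11. Among them was the one with the highest CPM, chr19:45803877-45804268, with 29.4 and 28.8 CPM in DMSO and 26.6 and 28.4 at 24 h (-0.08, adjusted p = 0.43).

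Per kilobase of region, DMSO levels in 6086 ran from 9.75 CPM per kb at CKM to 90.8 at ACTC1. The 20 regions that rose had a median of 36.8 CPM per kb and the 22 that did not pass a median of 36.9. Across the 45 regions, Spearman's rho between the 24 h log2 change and the DMSO level was -0.438 for CPM per kb, -0.345 for CPM and -0.15 for the change against width. These are descriptions over regions that share the same libraries and the same DMSO values, which enter both axes. Of the 45 members, 13 overlapped no region of the 6211 table, and 8 of these 13 rose at 24 h (61.5%, against 19.1% of all 17384 such regions of 6086), with none lower (against 11.2%). They had DMSO levels from 1.67 to 6.06 CPM and a median log2 change of 0.49. Among the 32 that overlapped one, 12 rose (37.5%, against 11.2% of all 39561 such regions) and 3 fell (9.38%, against 21.9%), the median change was 0.11 and DMSO levels ran from 5.0 to 103 CPM. This split is a description. Experiment 6211 had no 24 h libraries, the sources used here do not say how regions entered each table, and whether some entered the 6086 table through their 24 h level, which would build in a rise, was not tested. All 3 CKM risers, 2 of the 2 at TTN, 2 of the 5 at ACTC1 and 1 of the 6 in the troponin window were among the 13. The 6211 table therefore gives no early value for them.

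**Figure D3:**
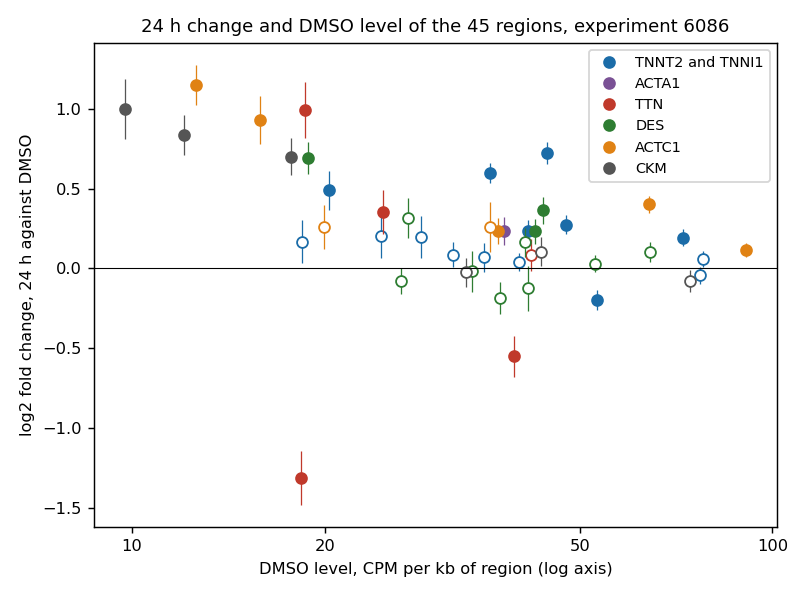
Log2 fold change at 24 h against DMSO (vertical axis; bars are 1 standard error from edgeR) of the 45 member regions of 6086, against their DMSO level in CPM per kb (horizontal log axis), coloured by window; filled points passed an adjusted p under 0.05. The highest points, at ACTC1, CKM and TTN, lie at the low end of the level axis, the lowest point is the TTN region at -1.31, and Spearman's rho over the 45 is -0.438.

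The shorter series of 6211 asked how early members change. At 0.5 h edgeR called 0 of 31 members (0.00735% of all 40844 regions were lower and 0.0% higher), with 2 members at an unadjusted p under 0.05 and 0 calls by DESeq2. At 1 h, 1 member fell, the TTN site above (3.23%, against 2.47% of all regions), and 0 rose, against 0.22% of all regions. For that count of 0, 9 members had an unadjusted p under 0.05 in either direction, and DESeq2 gave 1 lower and 0 higher. At 2 h the TTN site was again the 1 member that fell (3.23%, against 4.92%), and 2 members rose (6.45%, against 1.97%). Between 0.5 h and 2 h, edgeR called 0 of 31, against 1.28% of all regions lower and 0.147% higher, with 4 members at an unadjusted p under 0.05, a smallest adjusted p of 0.189 and 0 calls by DESeq2.

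Both risers at 2 h in 6211 lay in the troponin window. At chr1:201393188-201393588 the level was 34.1 and 33.2 CPM in DMSO, 37.6 and 38.7 at 0.5 h, 39.0 and 40.8 at 1 h and 41.0 and 44.7 at 2 h. All treated libraries lay above DMSO (log2 change 0.35 at 2 h, SE 0.09, edgeR adjusted p = 0.02). At chr1:201399999-201400399 it was 34.0 and 32.1 CPM in DMSO, 33.8 and 36.2 at 0.5 h, 37.6 and 38.0 at 1 h and 42.8 and 41.1 at 2 h. There the 0.5 h libraries overlapped DMSO and the later ones did not (0.34 at 2 h, SE 0.09, adjusted p = 0.021). DESeq2 called neither (adjusted p = 0.108 and 0.121), nor did a fit of only the groups compared (0.0547 and 0.0553). The first call was also lost without either DMSO library or without 2 h library B, and the second when any 1 of its 4 libraries was omitted.

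At the regions with the highest CPM of each window in 6211, TTN excepted, no change passed at 2 h. The region at ACTA1, chr1:229570416-229570816, measured 14.9 and 16.9 CPM in DMSO, 17.1 and 17.4 at 0.5 h, 16.8 and 18.2 at 1 h and 18.0 and 18.9 at 2 h, and its log2 change of 0.22 at 2 h had an edgeR adjusted p of 0.34. At ACTC1, chr15:35091665-35092065 gave 108 and 103 CPM in DMSO and 98.7 and 105 at 2 h (-0.06, adjusted p = 0.74). The corresponding values were 42.1 and 39.6 against 37.2 and 37.3 CPM at CKM, chr19:45803897-45804297 (-0.13, adjusted p = 0.48). At DES, chr2:220269671-220270071 had 56.7 and 56.2 CPM against 59.1 and 50.6 (-0.04, adjusted p = 0.85). The troponin region chr1:201388750-201389150 had 77.7 and 75.2 CPM against 82.2 and 77.4 (0.06, adjusted p = 0.69).

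The 2 h effect was measured in both experiments, each with its own DMSO libraries, and the difference between them was tested. Of the 45 members, 20 were matched to a region of 6211 by 50% reciprocal overlap, 19 of them to a member. The TTN site that fell was not among them, since 1 region of 6211 covers both of its regions in 6086, and neither was chr1:201399819-201400653. The difference between the 2 h log2 changes (6086 minus 6211) lay between -0.24 and 0.17, with standard errors of 0.10 to 0.22. EdgeR's interaction test called 0 of the 20 and 0 of all 29639 matched regions (0.0%). No member had an unadjusted p under 0.05, the smallest being 0.121 (adjusted p = 0.834), and 1866 of all matched regions did. DESeq2 was not run for this difference. Matching by any overlap gave 29 members, still without the TTN site, and 0 calls, with a difference of -0.13 (SE 0.11, adjusted p = 0.886) at chr1:201399819-201400653. With 1 library omitted at a time no member was called, and 1 member had an unadjusted p under 0.05 without 6086 2 h library B. Over all matched regions, omission of DMSO library B of 6211 gave 3 calls, and omission of its 2 h library A gave 10. A p that misses the threshold does not show that the effects were equal. Of the 19, 15 had the same sign in both. At the strongest troponin riser, chr1:201365005-201365473, the change was 0.32 in 6086 and, at its match chr1:201365073-201365473, 0.31 in 6211, where it did not pass alone (adjusted p = 0.092).

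**Figure D4:**
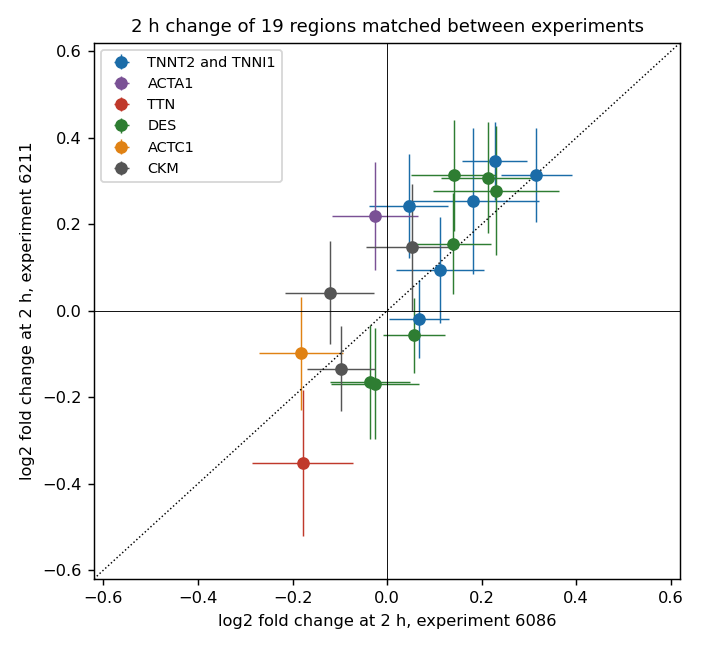
Log2 fold change at 2 h against DMSO of 19 matched regions in 6086 (horizontal axis) and 6211 (vertical axis), coloured by window, with bars of 1 standard error from edgeR and a dotted line of equal change. In 15 of the 19 the sign is the same, and all values lie between -0.35 and 0.35.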

How the data were processed

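Chromatin accessibility of the tagged Rh30 cells was taken from 2 deposited count tables, with the 6 tables deposited for treated groups against solvent used beside them. DiffBind, DESeq2, deepTools, Genrich 0.6.1, Bowtie2 and Trimmomatic 0.32 are listed in the submitters' processing notes, as are the builds hg19 and dm3. Peak merging, duplicate removal and any transposase shift are not given in the sources used here. Coordinates were taken as hg19. The deposited counts are whole reads per region, not normalized. The authors' log2 fold changes and p-values, per the file headers, were used only where named, and the 96 per-library columns of those 6 tables were not used.

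Counts were fitted with edgeR 4.0.16 in R 4.3.3 (TMM, filterByExpr, quasi-likelihood test on group means), 1 fit per experiment over its 8 libraries, which left 4 residual degrees of freedom. Filtering kept 56945 of 56949 regions in 6086 and 40844 of 40844 in 6211. Adjusted p-values (Benjamini-Hochberg) cover all regions of a table. The fit was tested on simulated data. TMM takes most regions as unchanged, so a uniform change would not be seen. Alternatives were DESeq2 1.42.0, other scalings, no filter, only the groups compared, the library letter as a replicate block and omission of each library.

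The members and lists were chosen with earlier results of these data known. Named by rule were, in each window, the region with the highest mean CPM in each table, the one with the largest change past the threshold at 24 h (mean count of at least 30), and any past it at 2 h. Every other region named was chosen after its values were seen. Further sarcomere genes were not analysed here, since no hg19 annotation was used. Promoter sequences are RefSeq's (GRCh38.p14).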

Additional observations from a re-analysis of the deposited data

Results flagged for a closer look

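The level differed between 24 h and 4 h of dTAG47 at 5 regions named by the rule, by edgeR's test of 24 h against 4 h. All but chr2:179672075-179672319 were named for the largest change of their window at 24 h. For them the test reuses the 24 h libraries that chose them, which favours a difference. Both times share 1 DMSO group of unstated duration, so dTAG47 and time in culture cannot be told apart. The log2 difference (24 h minus 4 h) was 0.29 at chr1:201365005-201365473 in the troponin window (adjusted p = 0.0011), 0.5 at chr15:35081451-35081794 at ACTC1 (adjusted p = 0.0012) and 0.6 at chr19:45825228-45825398 at CKM (adjusted p = 0.0099). It was 0.34 at chr2:179672075-179672319 at TTN (adjusted p = 0.011) and 0.57 at chr2:220309939-220310409 at DES (adjusted p = 2.4e-05). The differences at chr1:201365005-201365473 and chr2:220309939-220310409 passed in every alternative run. At ACTC1 the difference was lost without 4 h library B (adjusted p = 0.0748), and at CKM in DESeq2 (adjusted p = 0.194), without 4 h library B (adjusted p = 0.124) and without 24 h library A (adjusted p = 0.108). Groups of 2 libraries are too small to test for a library far from the others.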

How the results depend on the processing

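The count of members called at 24 h (23) lay between 17 and 24 in all alternatives, and that at 4 h (7) between 5 and 7. DESeq2 called 2 members instead of 4 at 2 h in 6086 and 7 instead of 16 for 24 h against 4 h. At 2 h in 6211 it called 1 instead of 3, as did a fit of only the groups compared. Over all regions DESeq2 also called fewer than edgeR. At 2 h in 6086 it called 1328 lower and 70 higher, against 2418 and 557. At 2 h in 6211 it called 1186 lower and 155 higher, against 2009 and 806. Without 1 library at a time, the 2 h count in 6086 ran from 1 to 4, that at 4 h from 5 to 7, that at 24 h from 18 to 21 and that of 24 h against 4 h from 8 to 12. In 6211 the 0.5 h count ran from 0 to 1, the 1 h count from 0 to 3 and the 2 h count from 1 to 2. Nothing ties the letters A and B to a replicate number, and same-letter deviations correlated at -0.137 to 0.154 in 6086 and -0.052 to 0.211 in 6211. With the letter as a replicate block, the calls in 6086 were 21 (24 h), 7 (4 h) and 3 (2 h), and in 6211 they were 1 (1 h) and 3 (2 h). Over all regions of 6086 the block gave 10350 lower and 7486 higher (24 h), 2957 and 846 (4 h), and 2300 and 461 (2 h). In 6211 it gave 1141 and 131 (1 h), and 2204 and 961 (2 h). With the letters crossed at 2 h, a block chosen after seeing the data, 4 members were called at 2 h in 6086. Over all regions that block gave 2631 lower and 731 higher. Of 27 results named by the rule, 14 passed in every alternative and 13 were lost in some. Over 274 values, 230 stayed on their side of the threshold, 44 were lost and 0 reversed. With 2 libraries a group, a member that did not pass is not shown to be stable.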
